A study of Mus musculus with 4 samples.

Results

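The Ms4a genes encode small proteins that cross the membrane 4 times, and the genes lie side by side in the mouse genome. Described here are 10 of them, Ms4a1, Ms4a2, Ms4a4a, Ms4a4b, Ms4a4c, Ms4a6b, Ms4a6c, Ms4a6d, Ms4a7 and Ms4a8a, among 19 Ms4a genes and 27998 genes listed in the files. They were chosen by name and followed through every leukocyte type of 4 single-cell RNA libraries from C57BL/6 mouse aorta. The young arch intima came from 8 pooled mice, the aged adventitia, the outer coat of the vessel, from a number of mice that the labels do not state, and the aged descending intima from 6 pooled mice in each of libraries a and b. For the intima the adventitia was stripped, the opened vessel bathed in trypsin and the inner lining scraped off, with Actinomycin D to block transcription and a red cell lysis step, and the labels repeat this text for the adventitial library. Ages in weeks are not given in the sources used here.

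Cells were captured with 10x Genomics 3′ chemistry, in which each captured RNA molecule is read near its 3′ end and counted once as a unique molecular identifier (UMI). After filters 2114 cells of the young arch, 7904 of the adventitia, 1988 of descending library a and 2091 of descending library b were analysed, with a median of 6952, 2476, 5198.5 and 4872 UMIs per cell in that order. Levels are CPM, a gene's UMIs summed over all cells of a type in a library per 1000000 UMIs of those cells, with exact 95% Poisson intervals that cover counting error only. Cell types were named from other genes of the same cells, and no Ms4a gene was used to cluster or name them. The intimal libraries are pools of mice, and nothing in the labels separates animals within a library. At best, p-values thus measure the spread between libraries, which may be technical. Region, age and library cannot be told apart between arch and descending aorta. Barcodes shared between library pairs numbered 4 to 31. The adventitial library stood apart in fat cell markers, which summed to 1326 CPM in its macrophages, against 9.05 CPM in arch macrophages and at most 2.88 CPM in descending ones. The part of free RNA in these sums was not tested. The arch library stood apart in holding 113 thymocyte-like cells. Endothelial cells, the defining cells of the intima, made up 1242 of the 2114 arch cells and 1464 and 1285 of the cells of descending libraries a and b, against 309 of the 7904 adventitial cells.

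Members of the family are textbook surface markers of separate blood lineages. Ms4a1 encodes CD20 of B cells, which works beside the B cell receptor and is the target of therapeutic antibodies. Ms4a2 encodes the β chain of the high-affinity IgE receptor, which amplifies the signal that makes mast cells and basophils degranulate. Ms4a4b is known from mouse T cells, where its protein sits with the costimulatory receptor GITR, and the human MS4A4A and MS4A7 proteins are known from macrophages. The remaining members are less well understood, and many have arisen by duplication in rodents.

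The members lie on chromosome 19 within 556249 bases, chr19:11067471-11623719 (GENCODE M21 on GRCm38), 5 on the plus and 5 on the minus strand. Read along the chromosome they run Ms4a8a, Ms4a1 and Ms4a7 on the minus strand, then Ms4a4a, Ms4a4c, Ms4a4b, Ms4a6c and Ms4a6b on the plus strand, then Ms4a6d and Ms4a2 on the minus strand. Some neighbours differed in the cells with their highest level and others did not: 2311 bases separate Ms4a4b, highest in T cells, from Ms4a6c, highest in monocytes, while Ms4a6c and the next member, Ms4a6b, 34320 bases on, were both highest in monocytes.

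**Figure D1:**
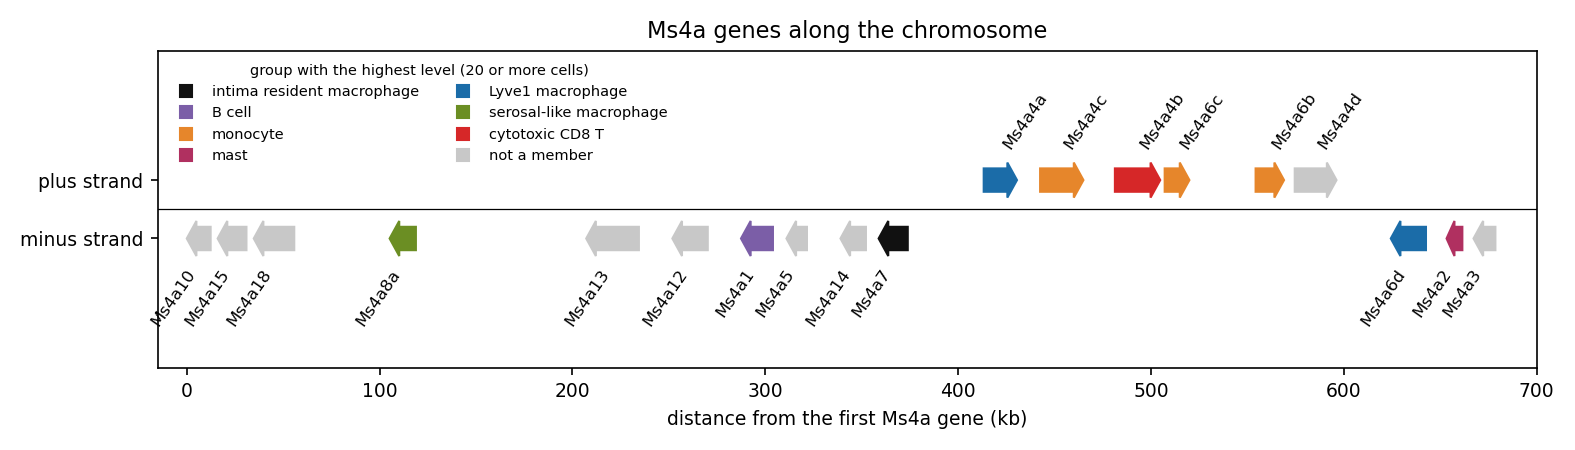
Positions of the Ms4a genes as distance from the first of them in kb, with arrows giving the strand. Members are coloured by the group with the highest CPM among groups of 20 or more cells in a library, and the 9 Ms4a genes that are not described here are grey. Ms4a4a, Ms4a4c, Ms4a4b and Ms4a6c, neighbours on the plus strand, each differ from the next in that group, whereas Ms4a6c and Ms4a6b share monocytes. Ms4a4a is placed by 12 UMIs in adventitial Lyve1 macrophages, with an interval overlapping that of monocytes, so its difference from Ms4a4c is uncertain.

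Some members are close copies. Over 45 pairs the median identity of aligned coding sequence was 64.9%, but Ms4a4b and Ms4a4c matched at 91.74% of aligned coding bases, Ms4a6b and Ms4a6c at 86.43%, Ms4a6b and Ms4a6d at 81.76% and Ms4a6c and Ms4a6d at 79.59%. The first 90 coding bases of these genes are shown, because they let the reader see how alike the copies are. Capitals mark the aligned columns in which the copies differ, 7 in the first pair and 19 in the trio (GENCODE M21 transcripts on GRCm38, coding strand, 5′ to 3′).
Ms4a4b: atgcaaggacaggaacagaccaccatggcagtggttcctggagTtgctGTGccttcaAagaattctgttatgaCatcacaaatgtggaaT
Ms4a4c: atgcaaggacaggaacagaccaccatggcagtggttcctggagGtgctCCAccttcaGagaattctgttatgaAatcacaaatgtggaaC
Ms4a6b: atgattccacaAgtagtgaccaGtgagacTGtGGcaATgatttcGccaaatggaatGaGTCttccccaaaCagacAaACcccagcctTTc
Ms4a6c: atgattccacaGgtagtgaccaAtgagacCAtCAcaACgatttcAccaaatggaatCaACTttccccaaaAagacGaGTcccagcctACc
Ms4a6d: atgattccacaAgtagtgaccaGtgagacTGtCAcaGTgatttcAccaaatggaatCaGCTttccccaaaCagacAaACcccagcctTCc

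A 3′ count depends on the end of the transcript. In windows of 50 bases over the last 600 bases of their transcripts, 2.85% of the Ms4a4b windows and 5.27% of the Ms4a4c windows occurred in the other gene, as did 2.98% of the Ms4a6b windows and 4.99% of the Ms4a6c windows. No such window was shared by any other member. How the authors' counting assigned reads from shared stretches was not tested, so low values of a copy beside high values of its partner are uncertain.

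The likeness of Ms4a4b and Ms4a4c extends upstream of their RefSeq starts (GRCm38.p6), although the first was highest in T cells and the second in monocytes. Of 128 aligned columns 114 matched (89.06%), and capitals mark the columns that differ in chr19:11407533-11407660 of Ms4a4c and chr19:11443427-11443553 of Ms4a4b, both on the plus strand.
Ms4a4c upstream: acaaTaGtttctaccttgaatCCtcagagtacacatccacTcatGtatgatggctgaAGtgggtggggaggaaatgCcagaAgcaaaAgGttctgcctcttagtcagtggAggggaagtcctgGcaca
Ms4a4b upstream: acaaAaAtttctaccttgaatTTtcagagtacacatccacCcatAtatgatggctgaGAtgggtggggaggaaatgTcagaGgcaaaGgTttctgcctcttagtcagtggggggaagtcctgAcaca

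RefSeq promoter stretches were found for 8 of the 10 members, without Ms4a1 and Ms4a6d. Motifs were searched on both strands of the 250 bases upstream. The GATA motif AGATAA occurred 3 times upstream of the mast cell gene Ms4a2 and in no other of the 8 members, and 10.25% of 27025 promoters held it. The 100 bases before the Ms4a2 start, chr19:11623720-11623819 on the minus strand, are shown with their matches in capitals.
Ms4a2 upstream: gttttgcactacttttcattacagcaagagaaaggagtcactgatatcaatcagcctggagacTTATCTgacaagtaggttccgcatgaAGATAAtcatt

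The PU.1 motif GAGGAAGT, the C/EBP motif TTNNGCAA and the interferon response motif, which is GAAA, any 2 bases and GAAA again, present in 2.44%, 9.55% and 3.04% of promoters, were not found in these windows of any of the 8 members. The octamer ATGCAAAT (1.61% of promoters) and the Runx motif TGTGGT (14.18%) occurred upstream of Ms4a4c, and the TATA box TATAAA (12.97%) upstream of Ms4a4b. These matches describe the letters only. The window of Ms4a6b is upstream of its RefSeq start, but 106 of its 250 bases lie in an exon of the gene in GENCODE M21, which starts it earlier.

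**Figure D2:**
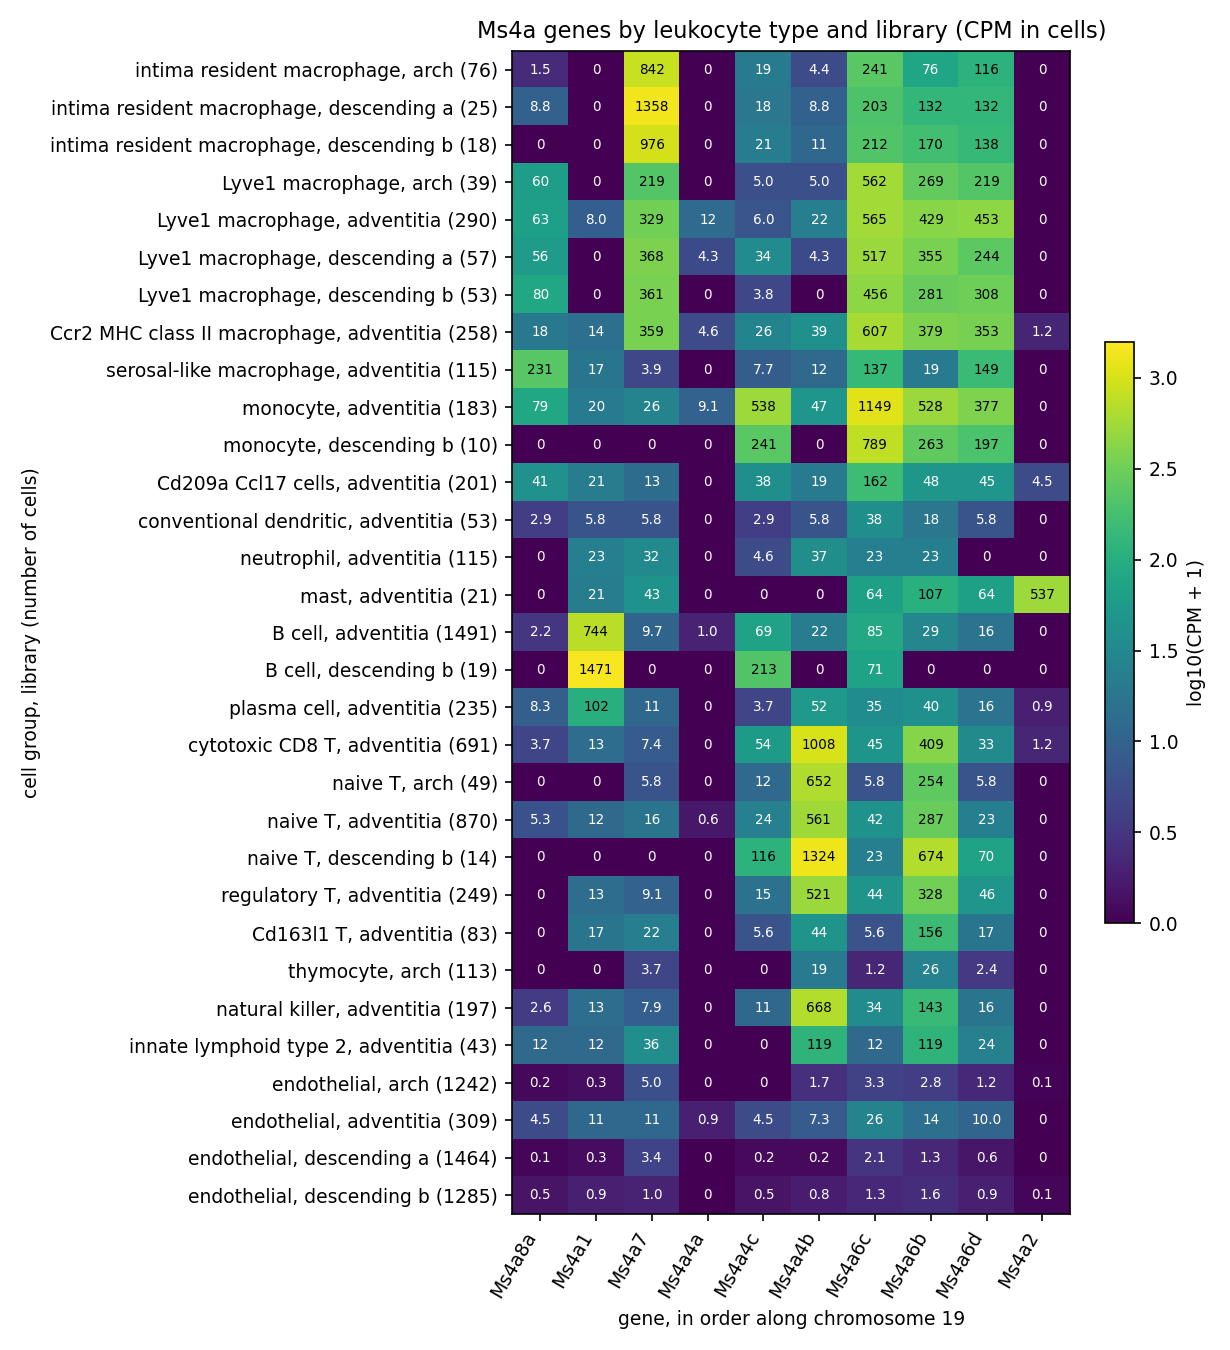
CPM of the 10 members (columns, in chromosomal order) in 31 combinations of cell group and library (rows, number of cells in brackets), coloured by log10(CPM + 1) with the CPM printed in each cell. Ms4a1, Ms4a2 and Ms4a4b each stand out in a narrow set of rows, while Ms4a6b, Ms4a6c and Ms4a6d fill the rows of most macrophages and monocytes.

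Ms4a1 was the B cell member. It reached 744.1 CPM (717.6 to 771.3) in the 1491 adventitial B cells and 1471 CPM (1127 to 1885) in the 19 B cells of descending library b. A UMI was seen in 75.0% of the adventitial B cells, against 3.88% of adventitial endothelial cells, which should lack the gene and had a median of 2702 UMIs against 2095 in the B cells. B cells held 89.4% of all Ms4a1 UMIs of the adventitia. Plasma cells, which end the B lineage, kept a lower level of 102.0 CPM (83.9 to 122.8) with a UMI in 29.8% of cells. In other large adventitial classes the intervals overlapped, at 12.5 CPM in macrophages, 12.6 CPM in T cells, 10.9 CPM in endothelial cells and 11.1 CPM in fibroblasts. The 24 adventitial Schwann cells stood higher, at 82.5 CPM (26.8 to 192.5) from 5 UMIs. Intimal macrophages of all 3 libraries had 0 UMIs of Ms4a1.

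Ms4a2 was found almost only where mast cells were. The 21 adventitial mast cells held 25 of the library's 35 Ms4a2 UMIs, a level of 537 CPM (347.5 to 792.6), and 61.9% of them (38.4 to 81.9, exact binomial interval) had a UMI. The adventitial endothelium had 0 UMIs in 309 cells, a floor of 3 counts in its total. The unnamed Cd209a Ccl17 cells, a group led by those genes, had 5 UMIs (4.51 CPM). The 3 intimal libraries had 1 UMI each, and no mast cell was found there.

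Ms4a4b marked T and natural killer cells. In the adventitia it was highest in cytotoxic CD8 T cells at 1008 CPM (959.8 to 1058, 81.2% of cells), followed by natural killer cells at 667.7 CPM (587.9 to 755.2), naive T cells at 560.7 CPM (525.6 to 597.5) and regulatory T cells at 521.0 CPM (462.3 to 585.0). The interval of CD8 T cells was apart from the others, whereas those of naive and regulatory T cells overlapped. Type 2 innate lymphoid cells had 119.4 CPM from 10 UMIs. The Cd163l1 T cells, a T group led by that gene, had 44.5 CPM (19.2 to 87.6), the lowest of the adventitial T types. A UMI was seen in 1.94% of adventitial endothelial cells, at 7.27 CPM.

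Naive T cells allowed a view across libraries. Ms4a4b stood at 652.3 CPM (537.6 to 784.2) in 49 arch cells, 560.7 CPM in 870 adventitial cells and 1324 CPM (1003 to 1716) in 14 cells of descending library b. The 113 thymocyte-like cells of the arch had 19.5 CPM (11.1 to 31.6), with a UMI in 6.19% of cells against 71.4% of the naive T cells of the same library. Within the arch library the intervals of thymocyte-like and naive cells were far apart.

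Ms4a6b was shared between lymphoid and myeloid cells. In the adventitia it reached 528.4 CPM (474.4 to 586.9) in monocytes and 428.6 CPM (388.9 to 471.3) in Lyve1 macrophages, a type also found in the intimal libraries. CD8 T cells had 408.7 CPM (378.1 to 441.1) and Ccr2 MHC class II macrophages 378.8 CPM (339.0 to 422.0). The intervals of these macrophage types and of CD8 T cells overlapped, and only that of monocytes lay above them. The Ccr2 MHC class II cluster met 6 of its 7 markers but also 8 of the 12 Lyve1 markers, so these types are not sharply apart. In a finer clustering the largest cluster of that name (239 cells) did not meet Ccr2. With a mitochondrial limit of 5% the name went to 151 cells led by Lyz1, Ear2 and Retnla, 19 of them from the arch. Natural killer cells, rich in Ms4a4b, had 142.5 CPM (107.1 to 185.9) of Ms4a6b. B cells had 29.5 CPM, and 7.24% of them carried a UMI, against 3.56% of endothelial cells. In CD8 T cells Ms4a4b and Ms4a6b were seen in the same cell in 307 of 691 cells (44.4%), where independent detection would give 43.0%.

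**Figure D3:**
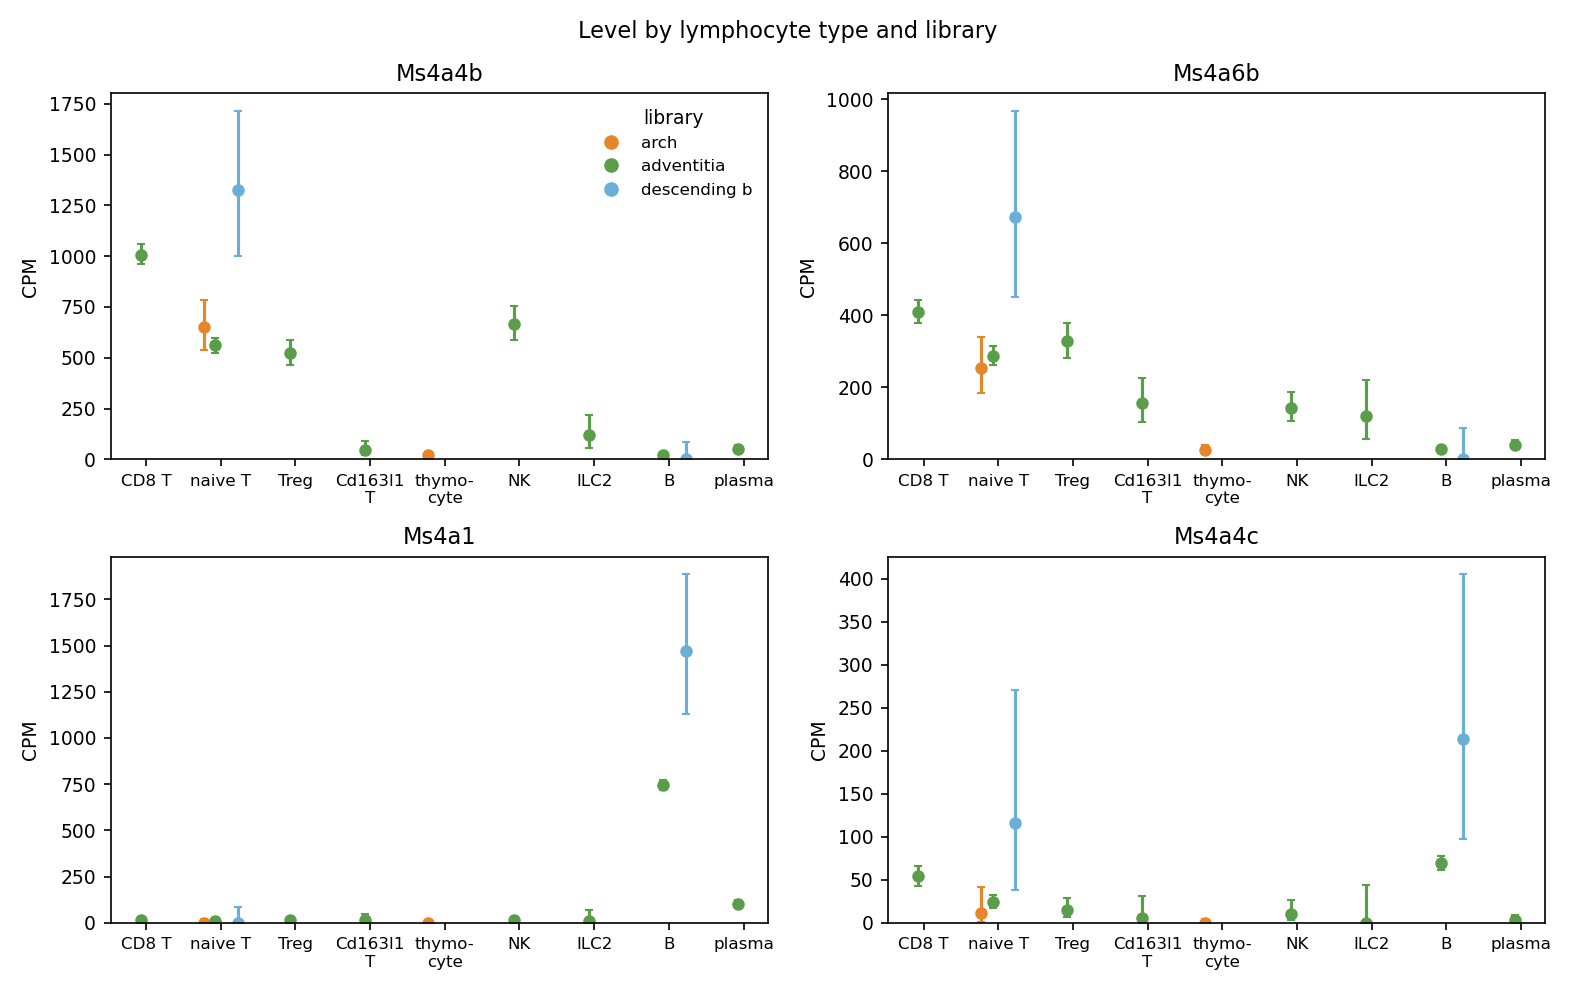
CPM of Ms4a4b, Ms4a6b, Ms4a1 and Ms4a4c (panels) by lymphocyte type (horizontal axis) in libraries with 10 or more cells of the type, as points with exact 95% Poisson intervals. Ms4a4b is high in CD8 T, naive T, regulatory T and natural killer cells, at 521.0 CPM and above, and stands at 44.5 CPM in Cd163l1 T cells and 19.5 CPM in thymocyte-like cells.

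Ms4a4c, the near copy of Ms4a4b, was the monocyte member. It reached 537.5 CPM (483.1 to 596.5) in 183 adventitial monocytes, 74.3% of which had a UMI against 1.62% of adventitial endothelial cells. The 10 monocytes of descending library b had 241.2 CPM from 11 UMIs. Macrophages were far below, at 15.8 CPM in the arch, 13.3 CPM in the adventitia and 28.8 and 8.39 CPM in descending libraries a and b. Among lymphocytes B cells carried it at 69.5 CPM (61.5 to 78.1) in the adventitia and 213.5 CPM (97.6 to 405.2) in descending library b, where 9 UMIs were counted. CD8 T cells had 53.9 CPM and naive T cells 23.6 CPM in the adventitia, with non-overlapping intervals.

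Ms4a6c and Ms4a6d followed monocytes and macrophages as a pair. Ms4a6c was highest in adventitial monocytes at 1149 CPM (1069 to 1234), a UMI being seen in 93.4% of them against 7.77% of endothelial cells. It stood at 606.8 CPM (556.1 to 660.9) in Ccr2 MHC class II macrophages and 565.5 CPM (519.7 to 614.2) in Lyve1 macrophages, which overlapped each other, and at 136.6 CPM (111.8 to 165.2) in serosal-like macrophages. Ms4a6d was highest in adventitial Lyve1 macrophages at 452.8 CPM (411.9 to 496.6), whose interval overlapped that of monocytes at 377.0 CPM (331.6 to 426.9). The pair did not extend to conventional dendritic cells of the adventitia, with 38.0 CPM (20.2 to 64.9) of Ms4a6c and 5.84 CPM of Ms4a6d. Adventitial endothelial cells had 26.4 and 10.0 CPM. The unnamed Cd209a Ccl17 cells of the adventitia had 161.6 CPM of Ms4a6c and 45.1 CPM of Ms4a6d. Among lymphocytes Ms4a6c had 84.95 CPM in B cells and 41.9 CPM in T cells.

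Ms4a7 was high in most macrophage types and low in monocytes. It had 25.7 CPM (14.99 to 41.2) in adventitial monocytes, which carried the other phagocyte members at high levels, and 0 UMIs in the 10 monocytes of descending library b. Of the 183 adventitial monocytes 130 (71.0%) had UMIs of both Ms4a4c and Ms4a6c, while 10 had UMIs of both Ms4a7 and Ms4a6c. In the 290 adventitial Lyve1 macrophages Ms4a7 and Ms4a6c were seen together in 136 cells (46.9%). Macrophage types differed too: Ms4a7 stood at 359.2 CPM (320.5 to 401.4) in Ccr2 MHC class II macrophages and 329.0 CPM (294.3 to 366.7) in Lyve1 macrophages, but 3 UMIs in 115 cells gave 3.87 CPM (0.797 to 11.3) in serosal-like macrophages. That last level lay below the 10.9 CPM of adventitial endothelium.

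Ms4a8a was the member of serosal-like macrophages, a group named from a marker list with Serpinb2, F10 and Alox15. They had 230.7 CPM (198.1 to 267.0) and a UMI in 75.7% of cells, against 1.29% of endothelial cells, though they were also the deepest of the adventitial macrophages, with a median of 5871 UMIs. With every cell thinned to 2000 UMIs the share was 33.9%, against 8.99% of Lyve1 macrophages. Adventitial monocytes had 78.7 CPM (58.8 to 103.3), Lyve1 macrophages 63.4 CPM (48.7 to 81.1) and Ccr2 MHC class II macrophages 18.4 CPM. The serosal-like cells thus had the highest level of Ms4a8a and the lowest of Ms4a7 among macrophage types of the adventitia. Apart from sums over the family, each gene's level was compared only with its own level in other cells, since 3′ counts of different genes are not on a common scale.

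Ms4a4a was barely detected. Of its 34 UMIs over all libraries 12 fell in adventitial Lyve1 macrophages, giving 12.1 CPM (6.24 to 21.1), and 6 in adventitial monocytes, giving 9.09 CPM (3.33 to 19.8). These intervals overlapped. The 3 intimal libraries had 2 UMIs in all, so its level there was not measurable at this depth. Neutrophils, the remaining large granulocyte group, carried little of the family: all 10 members summed to 142.6 CPM in 115 cells, with a median of 1722 UMIs, against 89.1 CPM in adventitial endothelium.

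Summed over the 10 members, adventitial monocytes had the highest family count at 2772 CPM, and 79.2% of them carried UMIs of 3 or more members. Such a sum adds genes that are not on a common scale. It is weighted toward heavily counted members, such as Ms4a6c with 1149 CPM in these monocytes, and describes UMIs counted only. Lyve1 macrophages had 1338 CPM in the arch, 1888 CPM in the adventitia and 1582 and 1490 CPM in descending libraries a and b. Intima resident macrophages had 1300 CPM in the arch and 1860 and 1527 CPM in descending libraries a and b, and serosal-like macrophages 576.0 CPM. The share with 3 or more members was 69.0% of adventitial Lyve1 macrophages.

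The first test asked which members divide macrophages from T cells, over sums of both classes in all 4 libraries with the library as a block (edgeR quasi-likelihood test, adjusted over 5898 genes). Of the 6 members tested, Ms4a7, Ms4a6c and Ms4a6d were higher in macrophages and Ms4a4b was lower. Of all genes tested 16.0% were called higher and 9.55% lower. None of these called members had enough UMIs in the class where it was low to pass the low-count filter through that class alone. For Ms4a7, near 0 in T cells, and Ms4a4b, near 0 in most macrophage sums, the direction was thus given by the filter. The counts of called members are therefore not read against these shares. The low-count filter left out Ms4a1, Ms4a2, Ms4a4a and Ms4a8a. Ms4a8a, with 306 UMIs in macrophages against 15 in T cells, had the higher value in macrophages in 4 of 4 libraries, all 15 T cell UMIs being adventitial.

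Ms4a7 had 699.98 CPM in macrophages of the arch, 243.3 of the adventitia and 691.0 and 523.3 of descending libraries a and b, against 3.96, 11.9, 0 and 0 CPM in T cells of the same libraries. The groups did not overlap, and the log2 fold change was 5.90 ± 0.61 (SE, higher in 4 of 4 libraries, adjusted p = 8.52e-05). Ms4a6c had 314.4, 452.9, 414.6 and 391.7 CPM in macrophages against 2.97, 41.9, 0 and 14.5 CPM in T cells in the same order of libraries. The groups were again apart, with a log2 fold change of 4.82 ± 0.57 (adjusted p = 0.000174). Ms4a6d had 139.1, 330.9, 207.3 and 263.0 CPM in macrophages against 2.97, 29.7, 0 and 43.5 CPM in T cells, groups that were apart as well, with a log2 fold change of 4.08 ± 0.48 (adjusted p = 0.00017).

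Ms4a4b had 4.52 CPM in macrophages of the arch, 24.6 of the adventitia and 5.76 and 2.80 of descending libraries a and b, against 128.7, 711.3, 376.4 and 899.1 CPM in T cells. Every macrophage sum lay below every T cell sum, and the log2 fold change was -5.40 ± 0.45 (adjusted p = 4.63e-05). Ms4a6b had 119.9, 291.8, 282.1 and 251.8 CPM in macrophages against 64.4, 335.6, 200.7 and 493.1 CPM in T cells, groups that overlapped, with a log2 fold change of 0.20 ± 0.33 (adjusted p = 0.702). Ms4a4c stood at -0.56 ± 0.70 (adjusted p = 0.605). With the thymocyte-like cells left out, an alternative chosen after seeing the data, Ms4a6b came to -0.72 ± 0.26 (adjusted p = 0.0381) and Ms4a4c to -1.34 ± 0.46 (adjusted p = 0.0316), both lower in macrophages.

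Against the endothelium of the 3 intimal libraries, a set of cells outside the leukocytes, 7 members could be tested. All 7 were higher in macrophages, while 18.7% of 11568 genes were called higher. Ms4a8a and Ms4a4c had at most 4 UMIs in the endothelium of any of these libraries. Ms4a6d and Ms4a4b had at most 1.25 and 1.67 CPM there. All of these members, Ms4a8a, Ms4a4c, Ms4a6d and Ms4a4b, could pass the low-count filter only through macrophages, so their direction was given by the filter. The count of 7 is therefore not read against that share. Ms4a7 had 699.98 CPM in arch macrophages and 691.0 and 523.3 CPM in descending ones, against 5.00, 3.36 and 1.03 CPM in endothelial cells, a log2 fold change of 8.09 ± 0.28 (adjusted p = 3.20e-17). Ms4a6d reached 8.02 ± 0.27, Ms4a6c 7.70 ± 0.27, Ms4a8a 7.48 ± 0.62, Ms4a6b 7.01 ± 0.30 and Ms4a4c 6.74 ± 0.81, each higher in 3 of 3 libraries. Ms4a4b, with 7 UMIs in macrophages against 29 in far more endothelial cells, came to 2.53 ± 0.94 (adjusted p = 0.0354). That call was lost without either descending library (adjusted p = 0.268 without a and 0.0977 without b). Without the arch library Ms4a4b fell below the low-count filter. The other 6 members were called without any 1 of the 3 libraries.

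**Figure D4:**
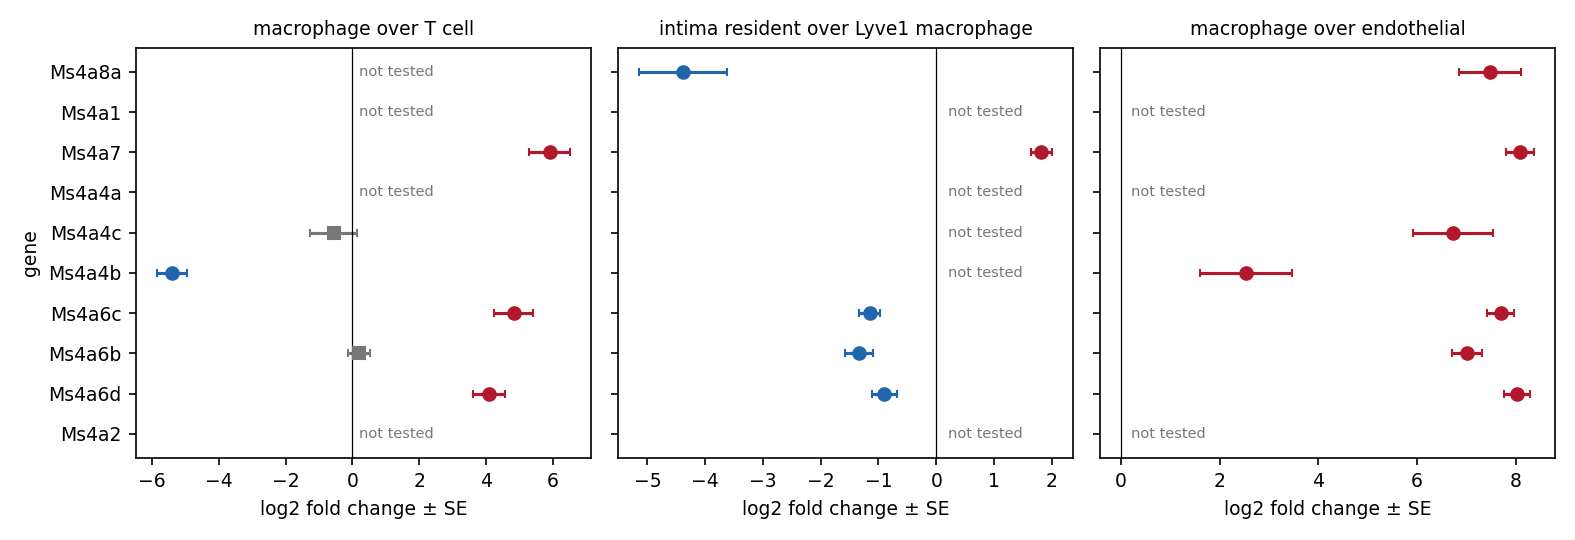
Log2 fold changes with standard errors of the members (rows, in chromosomal order) for macrophages over T cells, intima resident over Lyve1 macrophages and macrophages over endothelial cells. Red circles mark members called higher, blue circles members called lower and grey squares members that did not pass an adjusted p of 0.05. Ms4a7 lies to the right of 0 in all 3 panels, and Ms4a6b, Ms4a6c and Ms4a6d turn to the left of 0 in the middle panel.

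To determine whether macrophage types of the same libraries differed, the 2 types of the intima were set against each other. Intima resident macrophages, found in the scraped lining and named from a marker list with Mmp12 and Itgax, had more Ms4a7 and less Ms4a6b, Ms4a6c, Ms4a6d and Ms4a8a than the Lyve1 macrophages of the same libraries. Of the 5 members tested among 2884 genes 1 was called higher and 4 lower, where 13.3% of all genes were called higher and 14.9% lower. Ms4a8a, among the 4, could pass the low-count filter only through Lyve1 macrophages, so its direction was given by the filter. The sums held 76 arch, 25 descending a and 18 descending b intima resident cells against 39, 57 and 53 Lyve1 cells.

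Ms4a7 had 841.5 CPM (774.2 to 913.2) in intima resident macrophages of the arch, 1358 CPM (1152 to 1590) in descending library a and 975.8 CPM (786.7 to 1197) in descending library b, against 218.9, 367.7 and 361.1 CPM in Lyve1 macrophages. The groups were apart in each library and over all of them. The log2 fold change was 1.82 ± 0.19 (adjusted p = 2.44e-06). The share of cells with a UMI was 92.1%, 80.0% and 88.9% in intima resident macrophages against 64.1%, 68.4% and 67.9% in Lyve1 macrophages, and intima resident cells were the deeper ones. At 2000 UMIs per cell the shares were 64.5%, 65.2% and 68.8% against 23.1%, 51.8% and 48.0%. Endothelial cells of these libraries had a UMI in 4.75%, 2.25% and 0.700% of cells, with a median of 8394, 5737 and 5373 UMIs against 8933.5, 4641 and 4580 in the intima resident macrophages.

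Ms4a6b, the member shared with T cells, had 76.1 CPM in intima resident macrophages of the arch and 132.2 and 169.7 CPM in those of descending libraries a and b, against 268.6, 354.8 and 281.3 CPM in Lyve1 macrophages. It was lower in 3 of 3 libraries with no overlap, by a log2 fold change of -1.34 ± 0.24 (adjusted p = 0.000511). Ms4a6c had 241.5, 202.8 and 212.1 CPM against 562.1, 517.3 and 456.1 CPM, a narrow and separate range in each type, with a log2 fold change of -1.15 ± 0.19 (adjusted p = 0.000229). Ms4a6d, with 115.6, 132.2 and 137.9 CPM against 218.9, 243.7 and 307.9 CPM, changed by -0.90 ± 0.22 (adjusted p = 0.00527), a call that DESeq2 did not make (adjusted p = 0.169).

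Ms4a8a was nearly missing from intima resident macrophages, with 1, 1 and 0 UMIs in the arch and descending libraries a and b, against 12, 13 and 21 UMIs in Lyve1 macrophages. The Lyve1 counts correspond to 59.7, 55.6 and 79.8 CPM. The fitted log2 fold change of -4.38 ± 0.76 (adjusted p = 0.000402) rests on 2 against 46 UMIs, depends on how near-zero counts are treated, and could not be had without the arch library, where the gene fell below the low-count filter. The monocyte marker list holds F13a1, which is also on the list that named Lyve1 macrophages, so that its sum partly restates the naming. Its 10 genes summed to 207.8, 105.8 and 254.6 CPM in intima resident macrophages, with 7, 4 and 6 genes seen and Vcan at 0 in each library, against 2054, 1868 and 2782 CPM in Lyve1 macrophages, with 4, 6 and 8 genes seen and Chil3 among those at 0 in each. The part of monocyte RNA in the result was not tested.

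**Figure D5:**
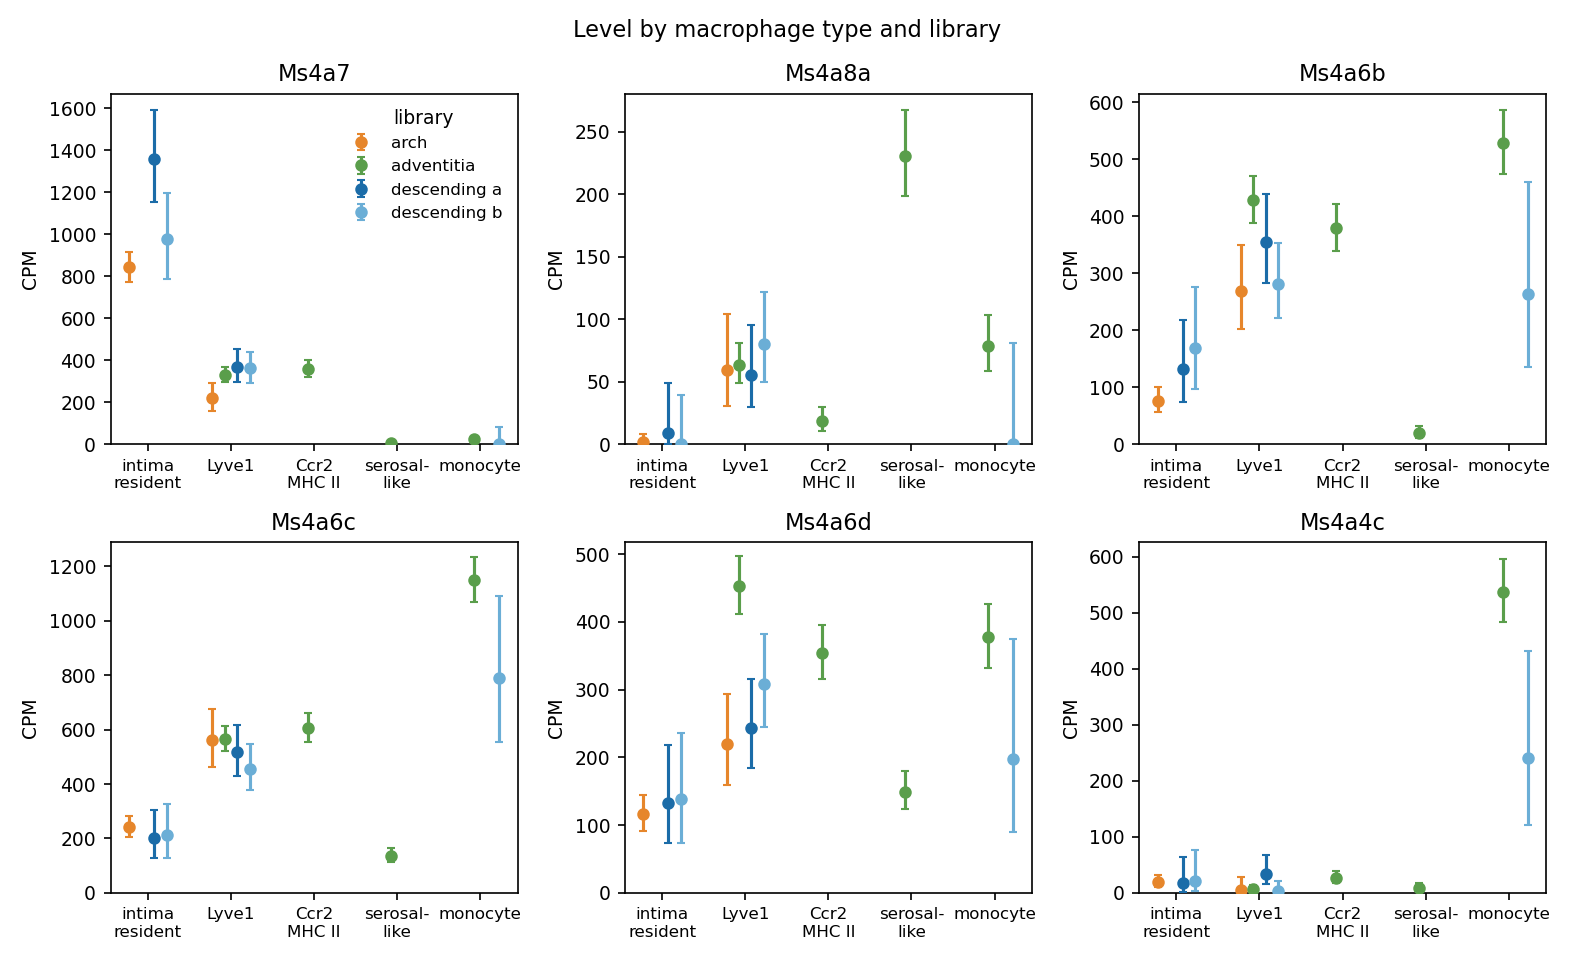
CPM of Ms4a7, Ms4a8a, Ms4a6b, Ms4a6c, Ms4a6d and Ms4a4c (panels) by macrophage type and in monocytes (horizontal axis), for libraries with 10 or more cells of the type, as points with exact 95% Poisson intervals. Ms4a7 is highest in intima resident macrophages, Ms4a8a in serosal-like macrophages and Ms4a4c in monocytes.

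Related genes were read from lists in the same comparison of intima resident with Lyve1 macrophages. Of the high-affinity IgE receptor list, which holds the receptor's chains and their signalling proteins, 3 of 4 tested genes were called higher, where 13.3% of all genes were: the adaptor Lat2 (3.18 ± 0.37 on the log2 scale, adjusted p = 1.02e-05), the kinase Lyn (0.90 ± 0.29, adjusted p = 0.029) and the shared γ chain Fcer1g (0.46 ± 0.14, adjusted p = 0.0234). The list's median was 0.68, against -0.03 over all genes. Of the list of B cell receptor genes and CD20 neighbours, the tetraspanin gene Cd81 was higher (1.09 ± 0.15, adjusted p = 6.61e-05) and the adaptor gene Blnk stood at 0.37 ± 0.34. Of reported partners of the family, the adaptor gene Tyrobp was higher (0.76 ± 0.15, adjusted p = 0.00092) and the receptor gene Trem2 stood at -0.27 ± 0.27. Trem2 is also on the marker list that named intima resident macrophages, so its value is not independent of the naming. Of the sister genes Tmem176a and Tmem176b the first was higher (0.56 ± 0.18, adjusted p = 0.0293). Between macrophages and T cells the same lists had 5 of 6, 3 of 4, 2 of 3 and 2 of 2 tested genes called higher, where 16.0% of all genes were, and Lat and Tnfrsf18, which encodes GITR, were called lower, as were 9.55% of all genes.

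Between regions, macrophages of the young arch were set against those of the aged descending aorta, 1 library against 2. Such a fit has 1 residual degree of freedom and takes the lone library to vary like the descending pair. Of 7 members tested, Ms4a6b and Ms4a8a were called lower in the arch, where 2.92% of 7336 genes were. Ms4a6b had 119.9 CPM in the arch against 282.1 and 251.8 CPM in the descending libraries (-1.06 ± 0.27, adjusted p = 0.00334), and Ms4a8a had 14.7 CPM against 40.3 and 58.8 CPM (-1.65 ± 0.50, adjusted p = 0.0218). The arch value lay below both descending values for each gene.

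The makeup of the class moved with this result: 76 of 115 arch macrophages were of the intima resident type, against 25 of 82 and 18 of 71 in descending libraries a and b. Within Lyve1 macrophages alone Ms4a6b changed by -0.24 ± 0.30 (adjusted p = 0.93) and Ms4a8a by -0.19 ± 0.55 (adjusted p = 0.976), and neither was called. Within intima resident macrophages alone Ms4a6b had 76.1 CPM in the arch against 132.2 and 169.7 CPM, a log2 fold change of -0.95 ± 0.46 that was not called (adjusted p = 0.483). DESeq2 called no member, with an adjusted p of 0.202 for Ms4a6b and none given for Ms4a8a. No member was called with no filter on low counts or with doublets kept either. Ms4a7 had 699.98 CPM in the arch against 691.0 and 523.3 CPM and was not called (0.30 ± 0.23, adjusted p = 0.621). Among Lyve1 macrophages alone it came to -0.74 ± 0.30 (adjusted p = 0.425), and among intima resident ones to -0.46 ± 0.32 (adjusted p = 0.848), so that no direction is read from it.

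Adventitial macrophages were set against descending ones in the same fit, and 4 of 7 members were called, where 13.1% of genes were called in either direction. With no filter on low counts, with doublets kept and with DESeq2 0 members were called. Ms4a7 was lower, with 243.3 CPM in the adventitia against 691.0 and 523.3 CPM in the descending libraries (-1.12 ± 0.25, adjusted p = 0.000107). No intima resident macrophage was found in the adventitia, and among Lyve1 macrophages alone the adventitial 329.0 CPM stood against 367.7 and 361.1 CPM, and the fitted log2 fold change was 0.11 ± 0.25 (adjusted p = 0.875). Its sign differs from that of the plain CPM, which lack the TMM (trimmed mean of M values) scaling of the fit, and no direction is read from it. Ms4a8a was higher (1.17 ± 0.33, adjusted p = 0.0056), with 97.8 CPM against 40.3 and 58.8 CPM. The serosal-like type, found only in the adventitia, made up 115 of its 663 macrophages, and among Lyve1 macrophages alone the change was 0.15 ± 0.41 (adjusted p = 0.901).

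Ms4a6d was higher in the adventitia, with 330.9 CPM against 207.3 and 263.0 CPM (0.69 ± 0.24, adjusted p = 0.0313). Among Lyve1 macrophages alone it was called as well, with 452.8 CPM against 243.7 and 307.9 CPM (0.97 ± 0.25, adjusted p = 0.00152). There Ms4a6b was called too (0.69 ± 0.25, adjusted p = 0.0487).

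Ms4a4b in adventitial macrophages came to 24.6 CPM against 5.76 and 2.80 CPM (2.69 ± 0.82, adjusted p = 0.0106), from 65 against 3 UMIs. With 4 UMIs in arch macrophages, Ms4a4b could pass the low-count filter only through the adventitial sum. Its direction was thus given by the filter, and its call is not read against the share of all genes. Without the arch library it fell below that filter. The 7 T cell markers in the files moved with it, summing to 107.6 CPM with none at 0 in adventitial macrophages, against 14.4 and 5.60 CPM with 3 and 5 at 0, Cd3e and Cd3g among them, in the descending libraries. Nkg7 and Ccl5 were among the leading genes of the Ccr2 MHC class II cluster, in which Ms4a4b had 39.1 CPM, and 5.44 CPM when called doublets were kept and the cells clustered again. The part of T cell RNA in the Ms4a4b call was not tested. DESeq2 gave no adjusted p for Ms4a4b.

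In T cells of the arch, Ms4a4b and Ms4a6b were called lower than in the descending aorta, where 0.209% of 7671 genes were called lower. Ms4a4b had 128.7 CPM in the arch against 376.4 and 899.1 CPM (-2.14 ± 0.53, adjusted p = 0.022), and Ms4a6b had 64.4 CPM against 200.7 and 493.1 CPM (-2.25 ± 0.58, adjusted p = 0.0325). Of the 165 arch T cells 113 were thymocyte-like, against 4 of 16 and 3 of 18 in the descending libraries. In naive T cells alone, chosen after seeing the data, the changes were -0.90 ± 0.30 (adjusted p = 0.171) and -1.36 ± 0.41 (adjusted p = 0.0752), and neither gene was called in all T cells with DESeq2, with no filter on low counts or with doublets kept. Without descending library b, which leaves no test, they were -1.30 and -1.39 in all T cells.

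Adventitial T cells against descending ones gave 0 called members of 5 tested with edgeR and 0 with DESeq2, where 5.62% of genes were called with edgeR. Their Ms4a4b stood at 711.3 CPM against 376.4 and 899.1 CPM (0.61 ± 0.47, adjusted p = 0.695). At an unadjusted p under 0.05 only Ms4a6c passed (1 of 5 members), with 41.9 CPM against 0 and 14.5 CPM (3.08 ± 1.498, adjusted p = 0.319), as did 1058 of all 7671 genes, and macrophage markers moved with it, at 809.8 CPM with none at 0 in the adventitia against 225.8 and 232.0 CPM with 6 of 10 at 0 in each descending library. Naive T cells alone gave 1 call, Ms4a4b, lower in the adventitia at -0.93 ± 0.28 (adjusted p = 0.0107).

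Genes with the most similar pattern to each member were found by Pearson correlation of log2(CPM + 10) over 41 sums of a cell group in a library, as a description of points that share libraries. For Ms4a1 they were Cd79a (r = 0.92), a chain of the B cell receptor, then Bfsp2, Cd79b, Lipc and H2-Eb2. For Ms4a4b they were the cytotoxic granule gene Nkg7 (0.91), Gimap7, Sh2d2a, Il2rb and Gimap3. Ms4a4c had weaker matches, led by Susd3 (0.70), and Ms4a6b was led by Tnfaip8l2 (0.86), Runx1 and Cd48. Ms4a6c went with Ctsc (0.93), Clec4a3, Cd68 and Ccl9, Ms4a6d with Msr1 and Fcgr1 (0.91 each), and Ms4a7 with Aif1 (0.89) and C1qa. Ms4a8a went with the integrin gene Itgam (0.88) and Cfp. Between members the highest value was that of Ms4a6c and Ms4a6d (0.94), whereas Ms4a4b and its near copy Ms4a4c had 0.39.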

How the data were processed

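The deposited files hold UMI counts per gene and cell barcode, made by the authors with Cell Ranger 2.1.2 on mm10, per the submitters' processing notes. Totals ran from 13181305 to 29370967 UMIs per library. Cells with 200 or more genes and at most 10% mitochondrial UMIs were kept. The doublet caller marked under 0.5% of the adventitial cells, so the highest-scoring 0.8% per 1000 cells in the library were removed from every library. Cells were clustered with scanpy 1.11.5 on 2000 variable genes without Ms4a genes and named from marker lists. Gene symbols came from GENCODE M21, and 27645 of 27998 IDs matched. UMIs were summed per type and library, and sums of 10 or more cells entered edgeR 4.0.16 quasi-likelihood fits with TMM scaling, tested on simulated data, with Benjamini-Hochberg adjustment over all genes tested. A call is an adjusted p under 0.05. Within-library comparisons had the library as a block. Shares were also taken at 2000 UMIs per cell. The members and lists were chosen with earlier results of these data known. All members are named, with the 5 genes most alike in pattern for those with 50 or more UMIs.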

Additional observations from a re-analysis of the deposited data

How the results depend on the processing

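The tests between cell types were steadier than those between regions. The number of all genes called between macrophages and T cells was 1506, and 2297 with no filter on low counts. Between intima resident and Lyve1 macrophages it was 815, and 451 with DESeq2 1.42.0. For arch against descending macrophages 2 members and 417 genes were called, but DESeq2 called 0 members and 77 genes, no filter 0 and 0, doublets kept 0 and 0, Lyve1 macrophages alone 0 and 49, intima resident macrophages alone 0 and 33, and Cd209a Ccl17 cells counted as macrophages 1 and 230. For adventitial against descending macrophages 4 members and 962 genes were called, but DESeq2 called 0 and 183, no filter 0 and 90, doublets kept 0 and 0, and Lyve1 macrophages alone 2 and 472. For arch against descending T cells 2 members and 30 genes were called, but DESeq2 called 0 and 2, no filter 0 members, doublets kept 0 and 1, and naive T cells alone 0 and 18. For adventitial against descending T cells 0 members and 431 genes were called, against 136 genes with DESeq2, 197 with doublets kept and 199 without the arch library, and naive T cells alone gave 1 member and 226 genes. Why these counts moved was not tested, beyond the smaller number of cells when 1 type is used alone. The alternatives on thymocyte-like, naive T and Cd209a Ccl17 cells were chosen after seeing the data.

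Leaving out 1 library at a time gave 4 to 5 called members and 1021 to 1421 genes between macrophages and T cells, 6 members and 3235 to 3729 genes between macrophages and endothelial cells, and 4 to 5 members and 700 to 779 genes between intima resident and Lyve1 macrophages. Region tests could be refitted without 1 library only, which gave 2 members and 422 genes (arch macrophages), 3 and 814 (adventitial macrophages), 2 and 38 (arch T cells) and 0 and 199 (adventitial T cells).

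Where a value was called in either fit, signs turned for Ms4a7 in adventitial against descending macrophages with Lyve1 cells alone (0.11, adjusted p = 0.875), for Ms4a6b in macrophages against T cells without thymocyte-like cells (-0.72, adjusted p = 0.0381) and for Ms4a4b in adventitial against descending naive T cells (-0.93, adjusted p = 0.0107). Signs of values called in neither fit also turned, as for Ms4a7 in arch against descending macrophages, at -0.74 with Lyve1 cells alone. Ms4a4b between macrophages and endothelium was also lost with no filter (adjusted p = 0.0783) and with no library block (adjusted p = 0.0601).

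Over all values of a member in a test under an alternative, 313 kept their side of the threshold or their level, 35 lost the call, 2 gained it, 11 moved with no test and 3 reversed. With Ms4a genes used for clustering, 186 of 187 levels stayed inside their counting intervals, with doublets kept 162 of 186 and with a mitochondrial limit of 5% 138 of 178. Thinning kept 72 of 186 shares inside theirs, since shares depend on depth. No paired analysis was possible because replicate labels a and b occur in the descending group alone. This concerns the tests between regions, while those between cell types had the library as a block from the start. Sums from under 20 cells, and all values of Ms4a2 and Ms4a4a, rest on few UMIs.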

Other observations

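Ms4a4d, a further copy in the cluster that lies between Ms4a6b and Ms4a6d, was found mainly in fibroblasts. It had 89.3 CPM (78.5 to 101.3) in fibroblasts of the arch, 196.4 CPM (184.3 to 209.0) of the adventitia and 120.2 CPM (105.0 to 137.0) and 134.3 CPM (121.8 to 147.7) of descending libraries a and b. Macrophages had 3.39, 2.65, 2.88 and 0 CPM in the same order, and endothelial cells 0.833, 5.45, 2.50 and 2.62 CPM. Adventitial mesothelial cells came next after fibroblasts in that library, at 33.4 CPM (23.6 to 45.8) from 38 UMIs, with a UMI in 15.9% of cells. Of 2085 Ms4a4d UMIs, 243, 990, 224 and 426 were in the fibroblasts of the arch, the adventitia and descending libraries a and b.

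The sister genes Tmem176a and Tmem176b had their highest levels in adventitial Cd163l1 T cells, at 1812 CPM (1621 to 2020) and 1945 CPM (1747 to 2160), the adventitial T type with the lowest Ms4a4b level. Adventitial CD8 T cells had 61.9 and 78.0 CPM, and naive T cells 59.0 and 63.7 CPM. Lyve1 macrophages of the adventitia had 664.1 and 888.4 CPM.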
